A study of Mus musculus with 10 samples.

Results

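Group 2 innate lymphoid cells (ILC2) can take on features of the other helper-like innate lymphoid cells, group 1 (ILC1) and group 3 (ILC3), and the genes described here mark those programs. The set holds 9 genes chosen by symbol: Il12rb1, Il12rb2, Ifng and Cxcr3 for the type 1 side, and Il23r, Ahr, Ltb, Lta and Tmem176b for the type 3 side. All 9 have a row among the 54838 genes of the count table. The cells were lung ILC2 from mice with lung inflammation raised by the protease papain, sorted for CD90.2 without lineage markers and whatever their ST2 and KLRG1. They came from c-Maf KO mice (KO, 5 libraries), named for the transcription factor c-Maf, and from WT mice (5 libraries). Both genotypes were C57BL/6 littermates kept in the same cages and both received papain. Neither the cells that lost c-Maf, nor the deleted part of the gene, nor the age of the mice is stated in the labels. Library numbers follow the deposit and pair no KO with a WT library. The labels do not state in words that every library had its own mouse, so the p-values measure only the spread among these libraries, which may be technical.

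As background, IL-12 from myeloid cells signals through IL-12Rβ1 and IL-12Rβ2 to STAT4, and together with the transcription factor T-bet this drives interferon gamma (Ifng) and the chemokine receptor CXCR3, the hallmarks of ILC1. IL-23 signals through the same IL-12Rβ1 paired with IL-23R to STAT3, and with the transcription factor AHR it sustains ILC3, which make IL-17, IL-22 and lymphotoxins. ILC2 that meet IL-12 can turn on interferon gamma, a conversion known as plasticity. In mouse ILC3, c-Maf is known to restrain conversion toward the type 1 state. Lymphotoxin α (Lta) and lymphotoxin β (Ltb) are ligands of the TNF family that organize lymphoid tissue, and Tmem176b encodes an intracellular cation channel found in myeloid cells and in ILC3.

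The genes lie in a few neighbourhoods. Ltb (ENSMUSG00000024399, GRCm38 chromosome 17, 35194439 to 35196320, plus strand) and Lta (ENSMUSG00000024402, 35203165 to 35205351, minus strand) flank Tnf (35199381 to 35202007). Il12rb2 (ENSMUSG00000018341, chromosome 6, 67291318 to 67376188, minus strand) lies beside Il23r (ENSMUSG00000049093, 67422932 to 67491855, minus strand). Tmem176b (ENSMUSG00000029810, chromosome 6, 48833818 to 48841496, minus strand) starts inside its divergent neighbour Tmem176a. Il12rb1 (ENSMUSG00000000791) spans 70808449 to 70821424 on chromosome 8, Ahr (ENSMUSG00000019256) 35497974 to 35535038 on chromosome 12, Ifng (ENSMUSG00000055170) 118441046 to 118445892 on chromosome 10 and Cxcr3 (ENSMUSG00000050232) 101731535 to 101734269 on chromosome X. All 9 are annotated as protein coding.

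Promoter windows of 300 bases (250 before to 50 after the transcription start, RefSeq, GRCm38.p6) were matched for 7 of the 9 genes, and those of Il12rb1 and Ahr are not used here. The windows of the neighbours Il12rb2 and Il23r, and of Ltb and Lta, are shown because these genes had WT counts with none or 1 in KO, or, for Il23r, because its window alone of the 7 genes held the MAF recognition core TGCTGAC. Capitals mark that core in Il23r and the STAT motif TTCNNNGAA in the other windows.
Il12rb2: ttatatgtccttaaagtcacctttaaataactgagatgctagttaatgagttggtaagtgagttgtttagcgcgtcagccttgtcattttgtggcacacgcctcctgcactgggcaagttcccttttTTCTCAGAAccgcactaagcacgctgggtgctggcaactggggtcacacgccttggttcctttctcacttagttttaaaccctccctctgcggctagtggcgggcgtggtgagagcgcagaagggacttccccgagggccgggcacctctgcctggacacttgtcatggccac
Il23r: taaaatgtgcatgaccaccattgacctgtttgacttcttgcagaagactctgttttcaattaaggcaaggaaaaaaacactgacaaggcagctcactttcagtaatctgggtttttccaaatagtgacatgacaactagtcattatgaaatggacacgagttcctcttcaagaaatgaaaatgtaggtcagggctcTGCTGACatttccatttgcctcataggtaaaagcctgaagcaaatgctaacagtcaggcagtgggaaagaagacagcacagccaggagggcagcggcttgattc
Ltb: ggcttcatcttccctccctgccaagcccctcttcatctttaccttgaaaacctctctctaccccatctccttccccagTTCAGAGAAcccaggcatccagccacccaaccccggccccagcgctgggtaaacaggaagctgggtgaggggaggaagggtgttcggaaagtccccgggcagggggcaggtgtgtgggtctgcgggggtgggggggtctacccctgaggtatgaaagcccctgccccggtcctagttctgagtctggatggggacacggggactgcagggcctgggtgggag
Lta: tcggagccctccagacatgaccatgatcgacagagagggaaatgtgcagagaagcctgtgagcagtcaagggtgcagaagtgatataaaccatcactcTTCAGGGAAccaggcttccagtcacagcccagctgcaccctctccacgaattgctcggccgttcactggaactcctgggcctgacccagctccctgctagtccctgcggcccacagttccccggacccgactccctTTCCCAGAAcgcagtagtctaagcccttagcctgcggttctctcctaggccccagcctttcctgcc
The windows are chr6:67376139-67376438 for Il12rb2, chr6:67491806-67492105 for Il23r, chr17:35194257-35194556 for Ltb and chr17:35205302-35205601 for Lta, each printed on the gene's own strand. Motifs were searched on both strands. The core TGCTGAC was found in 4.67% of all 32851 windows of the same length, and TTCNNNGAA in 8.3%. The Lta window held TTCNNNGAA at positions -152 and -16 from the start, and Ltb at position -172. The Il12rb2 window held the AHR core GCGTG at 4 places, where 32.4% of all windows held at least 1, and the Il23r window held the nuclear receptor motif AGGTCA at positions -229 and -66 from the start (16.3% of all windows). The T-box motif GGTGTGA and the AP-1 motif TGACTCA were found in none of the 7 genes' windows, against 3.98% and 5.2% of all windows. No matches of different motifs overlapped.

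The KO libraries were shallower and held fewer genes than the WT libraries, and this bears on every value that follows. They held 3620002 to 9867580 counts and 4052 to 7660 detected genes each, against 21400938 to 24489987 counts and 10577 to 12744 genes in WT libraries. The factors of the TMM scaling, which sets libraries to a common level, were 0.185 to 0.872 in KO and 1.5 to 1.94 in WT. Maf itself had 0, 0, 0, 108 and 0 counts in KO libraries 1 to 5, against 1412 to 3832 in WT libraries, so that KO library 4 held some Maf but less than every WT library per TMM-scaled count (log2 fold change -4.34, SE 2.06, edgeR adjusted p = 0.141, exact permutation p = 0.00794). Of 12 ILC2 markers, among them Gata3 and Il1rl1, 12 were tested and 0 passed in either direction. Over all genes tested, 27.1% were lower and 1.5% higher in KO. Some of the markers varied widely among KO libraries. Thy1 had 8 to 89243 counts in KO and 13252 to 19629 in WT libraries. Klrg1 had 1 to 1496 counts in KO and 4990 to 10493 in WT libraries. Whether the cells kept their ILC2 identity was not tested. The summed level of the 12 markers was 4060 to 21600 counts per 1000000 (CPM, TMM-scaled) in KO and 3940 to 6020 CPM in WT libraries. Thy1 alone stood at 12950 CPM in KO library 2. The markers did not move as one. Il13, Il5 and Klrg1 each had 4 KO libraries below every WT library, where 61.5% of all genes tested had at least 4. Il1rl1 and Il7r each had 4 KO libraries above every WT library. The share of all genes tested in that position was not taken, so this is no result about these 2 markers. Of 8 natural killer cell markers, 5 (Eomes, Klrb1c, Ncr1, Klra8 and Klre1) were at 0 in every library, and the summed level was 0 in KO and 0 to 5.78 CPM in WT libraries. Of 8 macrophage and dendritic markers 2 could be tested, Lyz2 and Chil3, and both passed as lower in KO, where 27.1% of all genes tested were lower; Chil3 overlapped between the groups, with 9 counts in KO library 5 and in WT library 5. The summed level of the 8 was 0.29 to 35.3 CPM in KO and 1.67 to 1540 CPM in WT libraries. T cell markers matter because T cells express several of the 9 genes. These markers summed to 43.3 to 164 CPM in KO and 125 to 314 CPM in WT libraries. Of 9 T cell markers 5 were tested and 0 passed, where 27.1% of all genes tested were lower and 1.5% higher. Globin transcripts of red cells were higher in KO for all 4 genes tested, and took 19% of the counts of KO library 1, 0.0107% to 0.0748% of the other KO libraries and at most 0.000919% of the WT libraries. The part of depth, scaling, globin and other cells in the results was not tested, beyond the values given with libraries left out.

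Il12rb1 and Ltb fell in KO ILC2, while Ahr and Tmem176b were each carried by 1 or 2 KO libraries and did not pass the test. Lta and Il12rb2 had no count in any KO library but were too weak or too uneven in WT for the test. Il23r, Ifng and Cxcr3 were at or near 0 in every library. With edgeR's quasi-likelihood test, 4 of the 9 genes passed the filter on low counts, of which 2 were lower in KO, 0 were higher and 2 did not pass at a Benjamini-Hochberg adjusted p of 0.05 over all genes. Over all 7490 genes tested, 27.1% were lower and 1.5% higher in KO. Il12rb1 and Ltb entered the test through their WT counts alone, so a difference was built into their passing the filter. These are bulk samples, in which fewer cells that express a gene and less RNA of it per cell cannot be told apart.

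**Figure D1:**
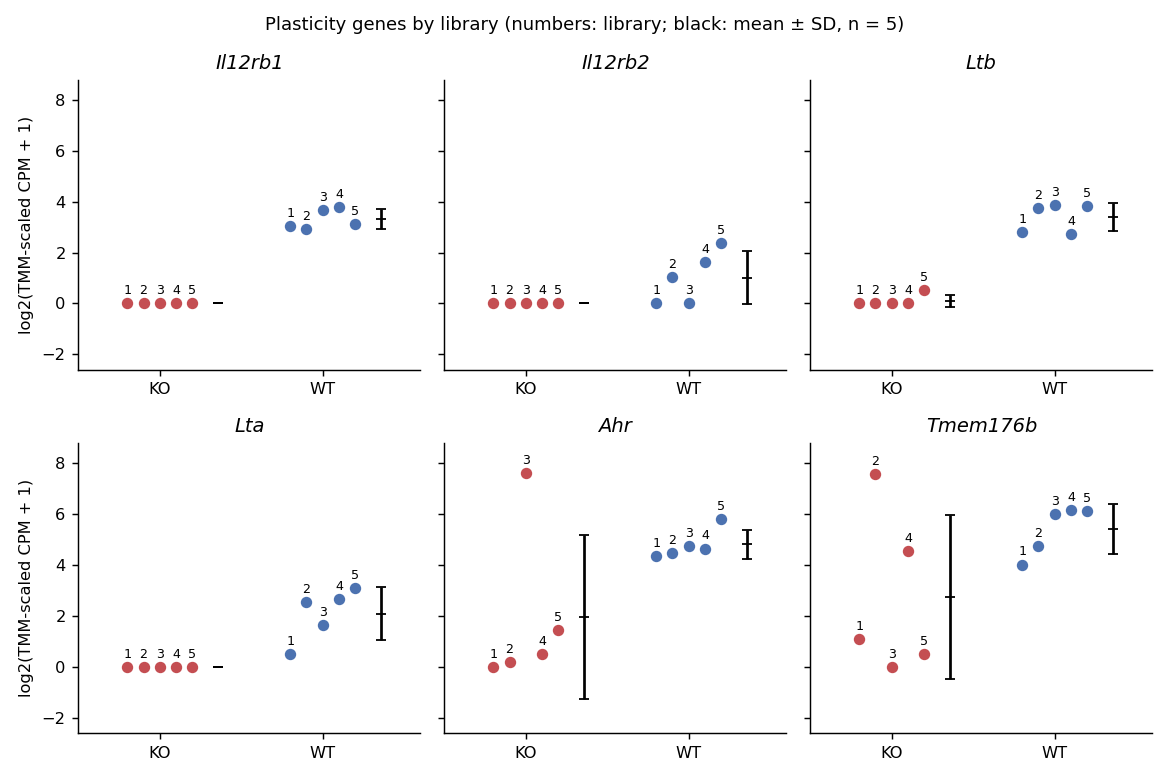
Level of the 6 plasticity genes with WT counts, as log2(TMM-scaled CPM + 1) on the vertical axis, in 5 KO (red) and 5 WT (blue) libraries; numbers name the library, and black bars are the mean ± SD (n = 5). Il12rb1, Il12rb2 and Lta sit at 0 in every KO library, and Ltb in all but KO library 5, while a single KO library stands highest for Ahr (library 3) and for Tmem176b (library 2).

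On the type 1 side, Il12rb1, the receptor chain shared by IL-12 and IL-23, had 0 counts in all 5 KO libraries, against 264, 304, 408, 605 and 348 counts in WT libraries 1 to 5. The groups did not overlap, as was the case for 28.9% of all genes tested, counted where all KO libraries were below all WT libraries. The WT level was 9.27 ± 2.91 CPM (SD, n = 5). With the KO group given a floor of 3 counts in all, Il12rb1 was at least 76.7-fold lower in KO with TMM scaling and at least 197-fold lower per library size; such floors cover counting error only, and as the reads carry no molecular identifiers they need not be independent molecules. The edgeR adjusted p was 0.00163, and a two-sided exact permutation test on log2(CPM + 1) reached p = 0.00794, which is the lowest value possible with 5 libraries in each group. Scaled to 3620002 counts, the total of the shallowest KO library, the WT libraries would hold 39.7 to 90.8 counts of Il12rb1. In WT its spread was the smallest of the 6 genes with WT counts, with a coefficient of variation of 31.4%, against a median of 55.2% over all tested genes.

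Il12rb2, the chain that makes the receptor specific for IL-12, had 0 counts in all 5 KO libraries, against 0, 48, 0, 97 and 193 counts in WT libraries 1 to 5. The groups overlapped, since WT libraries 1 and 3 were at 0 as well. Its WT level was 1.47 ± 1.78 CPM (SD, n = 5), and the exact permutation test gave p = 0.167. The gene did not pass the filter of the main test. Without that filter it was lower in KO (edgeR adjusted p = 0.0488, where 15.9% of 19014 genes were lower), and with DESeq2 it did not pass (adjusted p = 0.187, where 23.3% of 11211 genes were lower). In the annotation 40% of its exon bases lie inside the span of the convergent gene Serbp1, so its counts may be understated. Where both chains had counts, Il12rb1 stood above Il12rb2 per kilobase of exon by 5.85-, 5.76- and 1.67-fold, in WT libraries 2, 4 and 5.

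Ifng and Cxcr3 were listed at 0 in all 5 KO and all 5 WT libraries. A count of 0 allows up to 3 counts per library, which is 0.304 to 0.829 CPM per library size in KO and 0.122 to 0.14 CPM in WT libraries. These limits cover counting error only. For Ifng, 25.9% of the exon bases lie inside the listed gene AC153498.1, which itself had 0 counts in every KO and every WT library, whereas Cxcr3 overlaps no other annotated gene. A gene listed at 0 throughout may be uncounted rather than silent, and these files do not show which. Tbx21, which encodes T-bet, was likewise at 0 in all 10 libraries without overlapping another gene.

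Of other genes linked to type 1 signaling, Stat4, Il18r1 and Jak2 were tested and did not pass. Stat4, which relays IL-12, stood at 124 ± 186 CPM in KO and 77.2 ± 18.1 CPM in WT (SD, n = 5 each, edgeR adjusted p = 0.793). Il18r1, a receptor chain for IL-18, stood at 64.6 ± 28.2 CPM in KO and 66.5 ± 33.2 CPM in WT (edgeR adjusted p = 0.987), with at least 66 counts in every KO library. Of the kinases of the IL-12 and IL-23 receptors, Jak2 stood at 449 ± 403 CPM in KO and 209 ± 68.9 CPM in WT (edgeR adjusted p = 0.601), and Tyk2 had 0 counts in KO and 185 in WT in total, though 94.3% of its exon bases lie inside another gene.

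On the type 3 side, Il23r, the chain specific for IL-23, had 1, 0, 0, 2 and 0 counts in KO libraries 1 to 5, against 0 in every WT library. No library of either group rose above 3 counts, so no fold is given. Although the shallower KO libraries alone held counts, they were 3 in total. With no filter on low counts edgeR called this gene higher in KO (adjusted p = 0.0404, where 12.3% of 19014 genes were higher), while DESeq2 did not (adjusted p = 0.076, where 13.5% of 11211 genes were higher).

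Ahr, the aryl hydrocarbon receptor, a transcription factor activated by dietary, microbial and environmental ligands, had 0, 1, 1497, 3 and 4 counts in KO libraries 1 to 5, against 706, 995, 897, 1128 and 2517 counts in WT libraries. KO library 3 stood above every WT library and the other 4 KO libraries below every one, a position that 61.5% of all genes tested shared in at least 4 KO libraries. In the annotation 7.7% of the exon bases of Ahr lie inside the listed gene Gm48236, so its counts may be understated. Gm48236 had 0, 0, 1, 634 and 0 counts in KO libraries 1 to 5, against 0, 26, 66, 0 and 1 in WT libraries. The levels of Ahr were 40.1 ± 88.5 CPM in KO and 29.3 ± 14.8 CPM in WT (SD, n = 5 each). The log2 fold change was 0.45 (SE 1.83, edgeR adjusted p = 0.891). KO library 3 decided this value, since without it the log2 fold change was -5.31 and Ahr was lower in KO (edgeR adjusted p = 0.0136). Leaving that library out also moved the median of all genes tested by -1.36, and 3341 of 8812 genes were then lower. Scaling by library size alone gave -0.61 and voom gave -4.01, neither of which passed (adjusted p = 0.869 and 0.102). These settings moved the median of all genes tested the same way, by -1.36 and -3.11. The exact permutation test gave p = 0.0635 on a difference of -2.86 in mean log2(CPM + 1), and p = 0.0476 with a pseudocount of 0.5 or with CPM per library size.

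The other AHR pathway genes did not follow Ahr through the KO libraries in a single pattern. Of 11 genes 7 were tested and 7 did not pass (over all genes tested, 27.1% were lower and 1.5% higher). Their median log2 fold change was 1.14, against -0.47 over all genes tested. That median is the value of Arnt, whose KO counts came almost all from KO library 2, so it shows no shared rise. Tiparp, an AHR target that feeds back on the receptor, had 0, 376, 4990, 653 and 100 counts in KO libraries 1 to 5, against 1375 to 2591 in WT libraries (log2 fold change 1.81, SE 1.57, edgeR adjusted p = 0.459), so its highest value was in KO library 3, as for Ahr. Ahrr, the AHR repressor, had 112 counts in KO library 3 and 0 in the other KO and in all WT libraries. Arnt, the dimer partner of AHR, had 0, 3440, 0, 1 and 3 counts in KO libraries 1 to 5, against 714 to 3562 in WT libraries (edgeR adjusted p = 0.738). Cyp1a1 and Cyp1b1, xenobiotic enzymes induced by AHR, were at 0 in every library.

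Ltb, the membrane-anchoring chain of the lymphotoxin heterotrimer, passed the test as lower in KO. It had 0, 0, 0, 0 and 1 count in KO libraries 1 to 5, against 220, 573, 463, 267 and 606 counts in WT libraries. The groups did not overlap, as was the case for 28.9% of all genes tested. The WT level was 10.2 ± 3.94 CPM (SD, n = 5). The ratio of WT to KO per scaled library size was 254, with an exact 95% counting interval of 45.6 to 10040, and 652 per library size (117 to 25770). The log2 fold change was -7.42 (SE 1.55, edgeR adjusted p = 0.00165), and the exact permutation p was 0.00794. Its size rests on the 1 count of KO library 5: without that library no KO count was left and the fitted value was -11.03, which then depends on the prior count (edgeR adjusted p = 0.00441).

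Lta, which forms a soluble homotrimer or pairs with lymphotoxin β, had 0 counts in all 5 KO libraries, against 15, 223, 72, 250 and 348 counts in WT libraries 1 to 5. The groups did not overlap, as was the case for 28.9% of all genes tested, but the 15 counts of WT library 1 kept the gene out of the main test. Its WT level was 4.07 ± 2.85 CPM (SD, n = 5), and it was at least 36.1-fold lower in KO, or at least 92.7-fold per library size, with the same floor for the KO group. The exact permutation p was 0.00794. Where settings did test it, Lta was lower in KO. With DESeq2 the adjusted p was 0.00501, where 23.3% of 11211 genes were lower. Without a filter in edgeR it was 0.0128, where 15.9% of 19014 genes were lower. With any 1 KO library left out the edgeR adjusted p was 0.00615 to 0.00871, where 3021 to 3350 of 8812 to 8953 genes were lower. Scaled to the total of the shallowest KO library, WT libraries would hold 2.26 to 53.9 counts, so in WT library 1 the gene would be near the limit of detection.

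Tnf, which lies between Ltb and Lta, did not share their absence. It had 1, 78, 1118, 432 and 0 counts in KO libraries 1 to 5, against 508, 384, 1403, 853 and 967 counts in WT libraries (log2 fold change 1.1, SE 1.65, edgeR adjusted p = 0.685). KO libraries 2, 3 and 4 thus held Tnf but neither lymphotoxin. Of the 14 other genes of the lymphotoxin list 12 were tested: 1 was lower, 0 were higher and 11 did not pass, with a median log2 fold change of 0.046, against 27.1% lower, 1.5% higher and a median of -0.47 over all genes tested. The lower gene was Map3k14, the kinase NIK of non-canonical NF-κB signaling, with 8 counts in KO and 12146 in WT in total (log2 fold change -7.23, SE 1.84, edgeR adjusted p = 0.00536). Ltbr, the lymphotoxin β receptor, which lymphocytes mostly lack, was at 0 in every library.

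**Figure D2:**
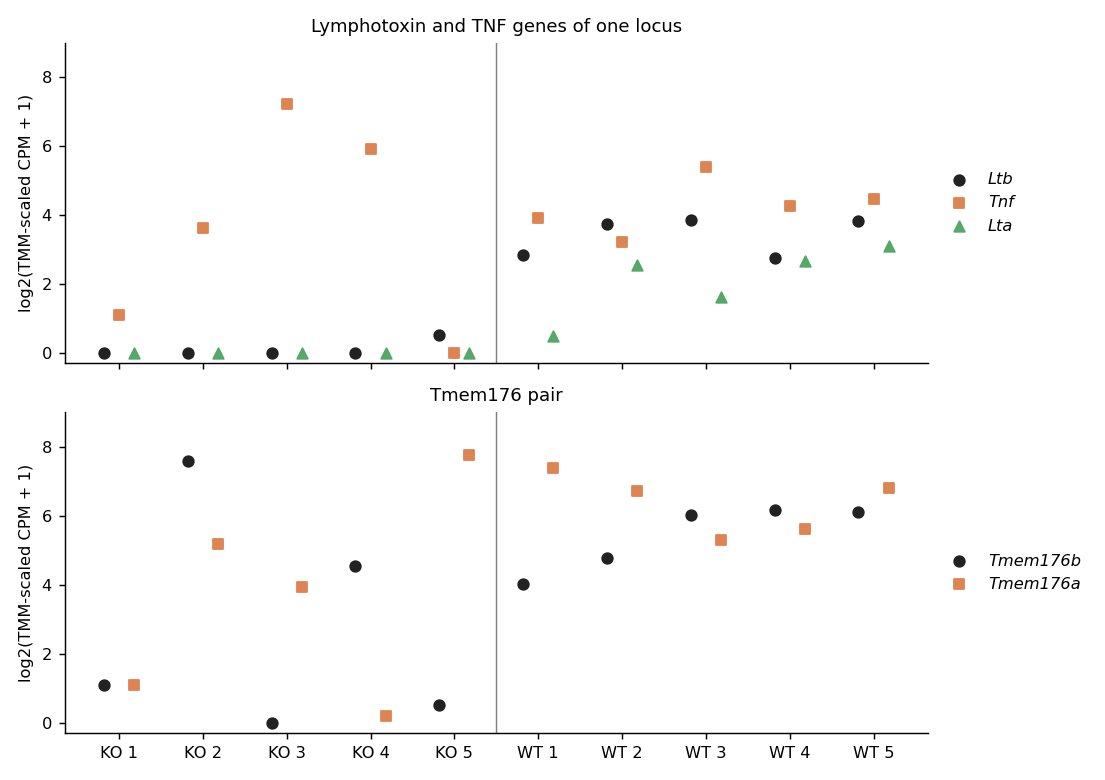
Levels as log2(TMM-scaled CPM + 1) on the vertical axis in each KO and WT library for the chromosome 17 neighbours Ltb, Tnf and Lta (top) and for Tmem176b and Tmem176a (bottom). KO libraries 2, 3 and 4 hold Tnf without Ltb or Lta, KO libraries 2 and 4 hold more Tmem176b than Tmem176a, and KO library 5 holds Tmem176a with 1 count of Tmem176b.

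Tmem176b had 1, 1329, 0, 161 and 1 counts in KO libraries 1 to 5, against 551, 1208, 2197, 3302 and 3114 counts in WT libraries. KO library 2 stood above every WT library and KO libraries 1, 3 and 5 below every one, so the groups overlapped. The levels were 43.3 ± 84.1 CPM in KO and 48.9 ± 26.2 CPM in WT (SD, n = 5 each), with a log2 fold change of -0.17 (SE 1.78, edgeR adjusted p = 0.961) and an exact permutation p of 0.111. The value was 0.14 with RLE size factors and 0.11 with DESeq2, settings that moved the median of all genes tested by 0.56 and 1.71, more than they moved Tmem176b. Without KO library 2 the log2 fold change was -2.99, still short of the threshold (edgeR adjusted p = 0.18).

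Its divergent neighbour Tmem176a, a channel of the same family, had 1, 244, 108, 1 and 505 counts in KO libraries 1 to 5, against 6050, 4791, 1311, 2221 and 5039 counts in WT libraries (log2 fold change -0.82, SE 1.61, edgeR adjusted p = 0.766). The pair was not balanced within libraries. Per kilobase of exon, Tmem176b was 8.75 times Tmem176a in KO library 2 and 259 times in KO library 4, where Tmem176a had 1 count, and 0.00318 times in KO library 5, where Tmem176b had 1 count. In WT libraries 1 to 5 the ratio was 0.146, 0.405, 2.69, 2.39 and 0.993. Of the exon bases of Tmem176b, 23.7% lie inside the span of Tmem176a, on the other strand, and the labels do not state whether the counting used strand.

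Tmem176b is also a myeloid transcript, so the myeloid markers are given beside it. Chil3, a macrophage product, had 1, 2, 3, 2 and 9 counts in KO libraries 1 to 5, against 16, 5954, 5168, 58165 and 9 counts in WT libraries. Cd68, a lysosomal protein of macrophages, had 0 counts in every KO library, against 0, 151, 455, 1208 and 0 counts in WT libraries. WT library 4 held the most of Chil3, Cd68 and Tmem176b, WT library 1 held the least Tmem176b of the WT libraries with 0 Cd68 counts, and WT library 5 held 3114 Tmem176b counts with 0 Cd68 counts. The myeloid markers did not share 1 order. Lyz2 and Itgax were also highest in WT library 4. In contrast, Mrc1 and Csf1r were highest in WT library 2 (743 and 353 counts), and Adgre1 among WT libraries was highest in WT library 3 (92 counts). The part of myeloid cells in the Tmem176b values was not tested. An alternative chosen after seeing these counts left out WT libraries 2, 3 and 4. The log2 fold changes were then 0.072 for Tmem176b, -0.13 for Ahr and -7.28 for Ltb. Il12rb1 and Ltb still passed (edgeR adjusted p = 0.00233 and 0.017), but with almost no KO counts their direction could not turn.

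Of the remaining type 3 genes, none of those tested passed as higher, but many could not be tested. Of the 20 other genes of that list reported here 9 were tested: 1 was lower and 8 did not pass, where 27.1% of all genes tested were lower and 1.5% higher. Ccr6, a chemokine receptor of the list, was not tested. It had 0, 6, 15, 2 and 0 counts in KO libraries 1 to 5, against 2, 0, 0, 0 and 0 in WT libraries. Batf, an AP-1 factor, had 0 counts in KO and 4694 in WT in total (edgeR adjusted p = 0.00163). Kit, a growth factor receptor used to mark ILC3 and some ILC2, stood at 94.1 ± 135 CPM in KO and 182 ± 51 CPM in WT (SD, n = 5 each, edgeR adjusted p = 0.696). Il1r1, the IL-1 receptor, had 1 count in KO and 52 in WT in total and was not tested.

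**Figure D3:**
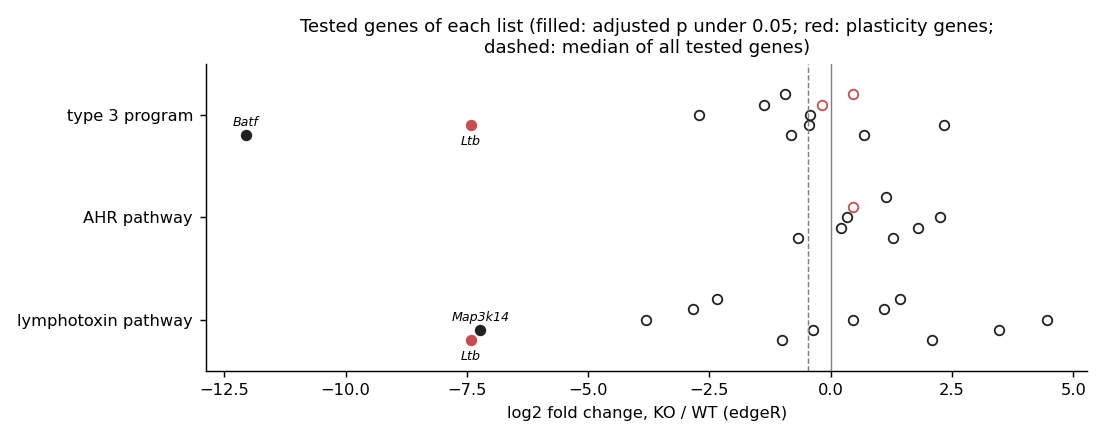
Log2 fold change, KO over WT, of the tested genes of the type 3, AHR and lymphotoxin lists that are reported here; filled points passed at an adjusted p of 0.05, red points are plasticity genes and the dashed line is the median of all tested genes, -0.47. The filled points are Ltb, Batf and Map3k14, and all lie below 0.

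How often a gene vanished from KO libraries depended on its WT level. At most 3 counts in all 5 KO libraries were found for Il12rb1, Il12rb2, Ltb and Lta, and for 22.3% of all genes tested; at least 3 KO libraries were at that level for 70.9%. At 10 to 20 CPM per library size in WT, where Il12rb1 (16.5 CPM) and Ltb (18.2 CPM) lie, 38.9% of 1462 tested genes were missing from all 5 KO libraries to that degree, and at 5 to 10 CPM, where Lta lies (7.67 CPM), 41.5% of 947. Ahr (53.2 CPM) and Tmem176b (89 CPM) had at most 3 counts in 3 KO libraries each, and 59.2% of the 1168 tested genes at 50 to 100 CPM had so few counts in 3 or more KO libraries. Absence of this degree was common among genes of like WT level and is not a result about the plasticity genes. With each library left out in turn, Il12rb1 and Ltb still passed, with edgeR adjusted p-values up to 0.00598 and 0.00718. Without KO library 1 alone, the library rich in globin, they were 0.00575 and 0.00718. As both genes had almost no KO counts, their direction could not turn, so this adds no separate support.

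**Figure D4:**
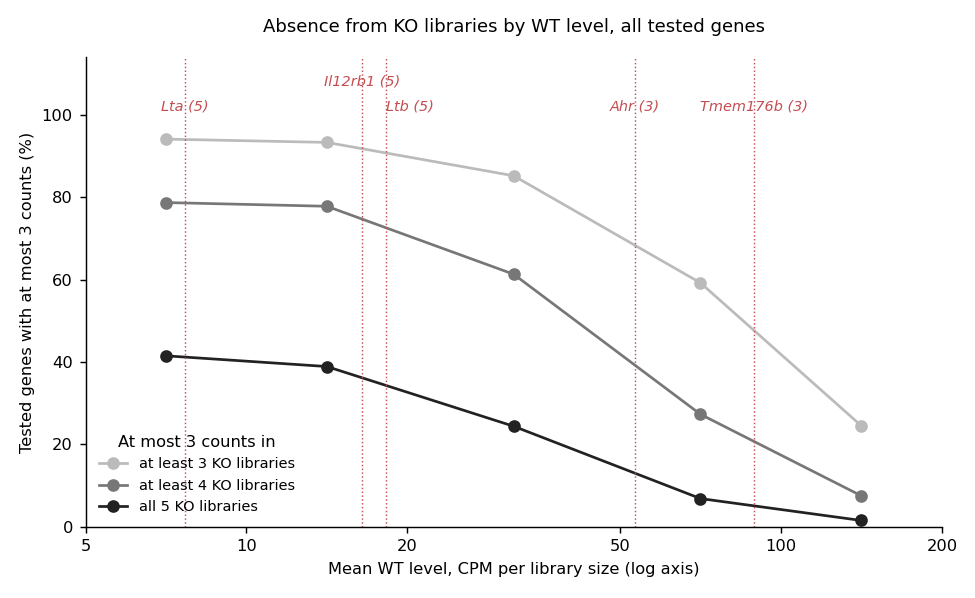
Share of tested genes with at most 3 counts in at least 3, at least 4 or all 5 KO libraries (vertical axis, percent), by mean WT level in CPM per library size (log axis, points at band centres). Red dotted lines mark the WT level of plasticity genes, with the number of KO libraries in which each had at most 3 counts in brackets; Lta, which the main test left out, is marked for its level only. The all-5 line drops to 1.53% at 100 to 200 CPM.

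Within WT the order of levels per kilobase of exon was Tmem176b, Ltb, Ahr, Lta, Il12rb1 and Il12rb2, at 20.6 ± 11, 6.73 ± 2.6, 4.76 ± 2.4, 2.94 ± 2.06, 2.26 ± 0.709 and 0.388 ± 0.468 CPM per kilobase (SD, n = 5). The ranges of all neighbours in this order overlapped except those of Il12rb1 and Il12rb2. Tmem176b was above Ltb in 5 of 5 WT libraries and Ahr above Lta in 5 of 5, whereas Ltb was above Ahr in 3 of 5 and Lta above Il12rb1 in 3 of 5. Libraries differed among themselves: WT library 1 was lowest, alone or tied, for 4 of the 6 genes, namely Il12rb2, Ahr, Lta and Tmem176b, and WT library 1 was lowest for 28.1% of all tested genes. WT library 5 was highest for Il12rb2, Ahr and Lta. The highest WT level was 18.4 times the lowest for Lta, 4.63 times for Tmem176b, 2.83 times for Ahr, 2.35 times for Ltb and 1.97 times for Il12rb1.

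The genes whose pattern over the 10 libraries lay nearest were found by the mean absolute difference of centred log2(CPM + 1). For Il12rb1 they were Adsl, Cbx1 and Plcb2, at distances of 0.0633, 0.137 and 0.138, against a median of 1.36 over 7089 candidate genes. For Ltb they were Ncdn, Zcrb1 and Rexo4 (0.165, 0.177 and 0.199), and for Lta Ndufs5, Tada2b and Mrps5 (0.184, 0.202 and 0.227). For Ahr the nearest were Ktn1 and Trim8 (0.282 and 0.344, median 1.78), and for Tmem176b Acly, Parp1 and Pdia4 (0.387, 0.425 and 0.534, median 2). The candidates were tested genes only, so of the plasticity genes only Il12rb1, Ahr, Ltb and Tmem176b could appear. None of them was among the 3 nearest of another. Lta could not appear beside Ltb, so these lists do not show whether those genes share a pattern.

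**Figure D5:**
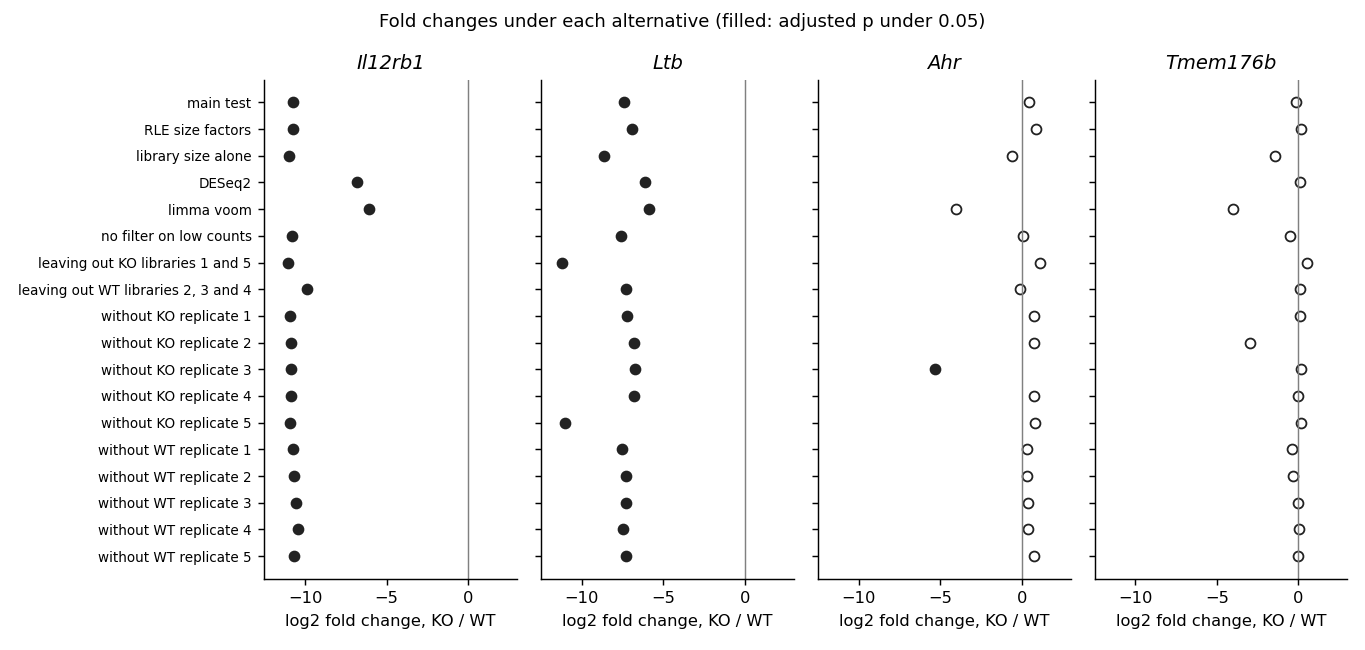
Log2 fold change, KO over WT, of the 4 tested plasticity genes under the main test and each alternative; filled points have an adjusted p under 0.05. Il12rb1 and Ltb stay filled and below 0 throughout, Ahr lies on either side of 0 and is filled only without KO library 3, and Tmem176b lies on either side of 0 and is never filled; DESeq2 gave Ahr no adjusted p. The values of Il12rb1, which has no KO count, depend on the prior count and are no estimate of size.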

How the data were processed

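Total RNA libraries were made with a strand-specific kit, per the labels' protocols. The authors deposited raw read counts per gene, whole numbers with 1 column per library and no normalization. The submitters' processing notes name STAR 2.6.0c, SAMtools 1.8 and HTSeq 0.9.1 with GRCm38; the sources used here give neither the annotation release nor the strand setting. Positions and exon lengths come from GENCODE vM21 (GRCm38), which matched 54723 of 54838 gene IDs. Genes were kept with filterByExpr (minimum count 10), scaled with TMM and tested with edgeR 4.0.16 in R 4.3.3, with Benjamini-Hochberg adjustment over 7490 genes at 0.05. The standard error is the log2 fold change over the square root of F. Exact permutation tests used all 252 splits of log2(CPM + 1). They were run for the 6 genes with WT counts, Maf and Tmem176a, and are not adjusted over them. Alternatives were RLE, library size alone, DESeq2 1.42.0, voom (limma 3.58.1), no filter and left-out libraries. The 20 replicate pairs all differed beyond sampling noise (smallest chi-square per degree of freedom 170). The test was checked on simulated data with the same spread in both groups. Here KO pairs differed more than WT pairs (1170 to 3030 against 170 to 469 per degree of freedom). The check therefore does not show how the test performs with such unequal spread. Named genes were the 9 genes, Maf, a fixed set of pathway genes, up to 4 passing genes per list and the 3 nearest in pattern. Ahrr, Cyp1a1, Cyp1b1, Ccr6, Chil3, Cd68, further cell type markers given by name and the genes of the closing observations were added after their values were seen. The genes and lists were chosen with earlier results of these data known. Some genes that these rules name, and counts over lists that hold one that passed, are not reported here.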

Additional observations from a re-analysis of the deposited data

Results flagged for a closer look

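Of the groups of 5 libraries, 3 held a library that stood far from the other 4 of its genotype. Ahr stood at 198 CPM in KO library 3, against 0 to 1.7 CPM in the other KO libraries, and at 55.4 CPM in WT library 5, against 19.6 to 26.1 CPM in the other WT libraries. Tmem176b stood at 193 CPM in KO library 2, against 0 to 22.2 CPM in the others. Chance alone flags about 1 group in 20.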

How the results depend on the processing

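Il12rb1 and Ltb kept their direction and passed under all alternatives run. With 0 and 1 KO counts in total, their direction could not turn under any of these, so this adds no separate support. Over all genes, 2027 were lower and 112 higher in KO. The count of lower genes was 3291 without KO libraries 1 and 5, and 1734 to 3350 when single libraries were left out; leaving out a KO library let 8812 to 8953 genes be tested, against 7490. The count of higher genes was 193 with RLE, 49 with library size alone, 1512 with DESeq2, 71 with voom, 2345 with no filter, 348 without KO libraries 1 and 5, and 82 to 333 without single libraries; lower calls made up 63.3% of calls with DESeq2 and 56.3% with no filter, against 94.8%. Of the plasticity genes, 4 were lower and 1 higher with no filter, against 2 and 0, and 2 to 4 were lower without single libraries. RLE moved the median of all tested genes by 0.56, library size alone by -1.36, DESeq2 by 1.71 and voom by -3.11. Ltb ranged from -11.03 to -6.74 without single libraries and was -11.2 without KO libraries 1 and 5. Ahr reversed to -0.61 with library size alone, -4.01 with voom, -0.13 without WT libraries 2, 3 and 4, and ranged from -5.31 to 0.79 without single libraries. Tmem176b reversed to 0.14 with RLE, 0.11 with DESeq2, 0.53 without KO libraries 1 and 5 and 0.072 without WT libraries 2, 3 and 4, and ranged from -2.99 to 0.15 without single libraries. The cause was not tested. No paired analysis was possible because the labels give no number shared by KO and WT libraries. A KO count of 0 limits folds to lower bounds.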

Other observations

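Some cytotoxic and type 3 effector transcripts, picked after their values were seen, had counts in some WT libraries and few or none in KO. Prf1, which encodes perforin, had 0 counts in every KO library, against 0, 0, 197, 229 and 0 counts in WT libraries 1 to 5. Gzma and Gzmb, which encode granzymes, had 0 counts in KO, against 145 and 49 in WT library 2 and at most 2 in the other WT libraries. WT library 2 also held the most of the T cell transcripts Trac and Cd3d (276 and 175 counts). The part of T cells in the granzyme counts was not tested. Klrk1, the activating receptor NKG2D, had 0 counts in KO, against 146, 583, 1, 1 and 344 in WT libraries 1 to 5. Il17a had 0, 0, 2, 1 and 0 counts in KO libraries 1 to 5, against 3, 62, 9, 58 and 1 in WT libraries. None of these 5 genes passed the filter of the main test. Ccr6 of the type 3 list went the other way, with 23 counts in KO and 2 in WT in total. Near or full absence from KO was common: it held for 41.5% of the 947 tested genes at 5 to 10 CPM per library size in WT. Of the 5 genes, all but Klrk1 (8.93 CPM) lay below that band, where no share was taken. These counts are thus no result about effector genes.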
